A study of Homo sapiens with 2 samples.

Results

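NF-kB is a family of dimeric transcription factors, and the genes described here are 3 of its subunits (NFKB1, NFKB2 and RELB), its inhibitors NFKBIA and NFKBIE, the feedback regulator genes TNFAIP3 and BIRC3, the inducible genes TNFAIP2 and ICAM1, and UBD, which encodes the ubiquitin-like modifier FAT10. They were chosen by gene symbol, after earlier results from the same arrays were known. Of the 10 genes, 9 had a probe whose symbol in the platform's probe-to-gene table matched, with 10 probes in all, among 24459 gene probes and 16685 genes measured on both arrays. BIRC3 had no probe under that symbol, so it has no expression value here and enters only the promoter search.

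The RNA came from SW620, a human cell line of colon carcinoma origin, grown in DMEM with serum under normal culture. One group carried a control lentivirus and the other was made to express CDR1AS, a circular RNA rich in sites for the microRNA miR-7, and each group was 1 array of total RNA. The labels name no cytokine or other inducer, and they do not give the promoter of the vector or say whether either population was a clone. With 1 array per group there was no replicate error and no test of any difference, so every value below compares these 2 arrays and not the conditions. Precision is limited throughout by having so few arrays.

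In resting cells NF-kB dimers are held in the cytoplasm by inhibitors of the IkB family, which mask the sequences that carry the dimers into the nucleus. Inflammatory signals such as TNF and interleukin-1 activate the IkB kinase complex, the inhibitors are marked for destruction by the proteasome, and the freed dimers bind kB sites in promoters and enhancers. Among the genes they switch on are their own inhibitors, NFKBIA first, and TNFAIP3, so that the pathway restrains itself. A slower, noncanonical arm processes the NFKB2 precursor to its active form, which pairs with RELB. UBD is induced jointly by TNF and interferon gamma, is attached to proteins as ubiquitin is, and directs them to the proteasome, and it is often abundant in colon and liver carcinoma.

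Of the set, UBD, NFKBIA, NFKBIE and TNFAIP3 were lower on the CDR1AS array, and TNFAIP2 slightly so. No promoter window was on hand for NFKBIE. ICAM1 was also lower, but both its spots were only just above background, and NFKB2 had nearly equal values on both arrays. The promoters of UBD, NFKBIA, TNFAIP3, ICAM1 and NFKB2 are shown here. Each is the 250 bases before an annotated start from RefSeq on GRCh38.p14, written 5′ to 3′ on the strand of the gene, with capitals at every match to a kB pattern on either strand.

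UBD, chr6:29559733-29559982, minus strand: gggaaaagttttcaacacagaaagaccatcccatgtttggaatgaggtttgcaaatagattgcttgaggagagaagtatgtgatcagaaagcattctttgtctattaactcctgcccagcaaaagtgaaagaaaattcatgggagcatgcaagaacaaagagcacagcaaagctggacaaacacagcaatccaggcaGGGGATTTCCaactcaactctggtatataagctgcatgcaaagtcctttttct

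NFKBIA, chr14:35404750-35404999, minus strand: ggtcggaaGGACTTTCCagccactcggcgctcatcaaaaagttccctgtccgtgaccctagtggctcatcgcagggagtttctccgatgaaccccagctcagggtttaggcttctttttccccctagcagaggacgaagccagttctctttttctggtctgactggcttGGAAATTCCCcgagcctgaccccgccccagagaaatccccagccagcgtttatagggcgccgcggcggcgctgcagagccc

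TNFAIP3, chr6:137867009-137867258, plus strand: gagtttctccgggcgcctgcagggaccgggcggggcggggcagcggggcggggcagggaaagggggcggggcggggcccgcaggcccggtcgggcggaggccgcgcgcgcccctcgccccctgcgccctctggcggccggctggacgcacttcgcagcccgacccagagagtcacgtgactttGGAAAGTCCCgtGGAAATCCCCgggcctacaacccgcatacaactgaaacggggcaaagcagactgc

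ICAM1, chr19:10270870-10271119, plus strand: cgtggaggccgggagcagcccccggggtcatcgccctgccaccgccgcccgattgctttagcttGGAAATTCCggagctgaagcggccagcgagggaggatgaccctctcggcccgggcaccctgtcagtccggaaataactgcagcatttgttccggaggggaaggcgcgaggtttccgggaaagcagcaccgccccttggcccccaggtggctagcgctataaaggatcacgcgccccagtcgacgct

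NFKB2, chr10:102394328-102394577, plus strand: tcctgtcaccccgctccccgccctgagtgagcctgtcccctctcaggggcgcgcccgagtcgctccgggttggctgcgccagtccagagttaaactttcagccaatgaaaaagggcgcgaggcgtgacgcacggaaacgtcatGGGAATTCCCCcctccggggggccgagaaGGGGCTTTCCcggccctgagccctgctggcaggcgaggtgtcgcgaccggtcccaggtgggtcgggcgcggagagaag

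The patterns searched were the kB consensus and a shorter pattern, GGNNTTTCC with its reverse complement GGAAANNCC, which overlaps the consensus in many matches. The shorter pattern was chosen after these promoters had been seen. Windows of 300 bases, from 250 before to 50 after a start, were on hand for 8 of the 10 genes with 11 starts. These 8 include BIRC3, which has no expression value. The kB consensus occurred in 7 of these 11 windows and in 11.3% of all 35116 windows. The shorter pattern occurred in 9 of the 11 and in 6.26% of all. A match is a description of letters and not a bound site, and genes named for NF-kB are often known through such sites.

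In UBD the consensus match GGGGATTTCC began 53 bases before the start. The same 10 letters occurred on the other strand of TNFAIP3, 55 bases before its start, next to GGGACTTTCC at 67 bases. NFKBIA held GGGAATTTCC on the other strand at 81 bases, and a shorter match, GGACTTTCC, at 242 bases. ICAM1 had no consensus match in its window but the shorter GGAATTTCC on the other strand at 186 bases. It was also the only 1 of the 8 genes searched with the interferon pattern TTCNNNGAA, at 75 bases, which occurred in 7.66% of all windows. The printed NFKB2 start held 3 consensus matches, of which those at 107 and 106 bases overlap on opposite strands and the other lies at 78 bases. Of the other NFKB2 starts, 1 had 2 consensus matches and 1 had no kB match. TNFAIP2 held only the shorter GGGTTTTCC at 97 bases, and NFKB1 held GGGAATTTCC 49 bases before 1 of its 2 starts. BIRC3 held consensus matches on the other strand at 199 and 135 bases. By gene, the shorter pattern occurred in 8 of 8 and the consensus in 6 of 8, among them NFKB1 and NFKB2, whose values were nearly equal. Only NFKB1 and NFKB2 had more than 1 window, so matches per start cannot be compared with those of the lower genes. Whether the matches bear on the values was not tested.

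**Figure D1:**
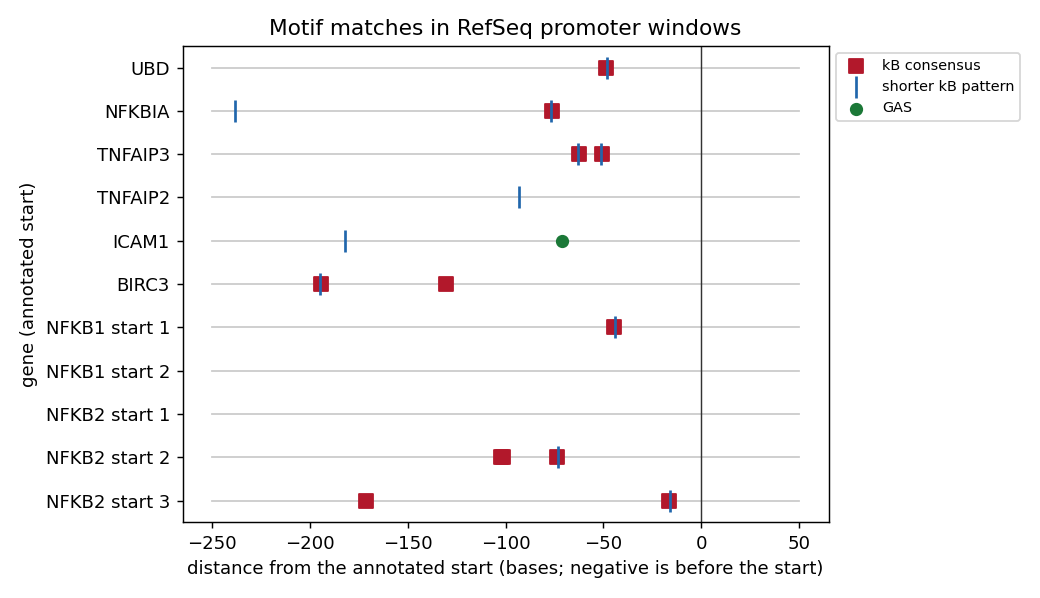
Motif matches (symbols) along 11 RefSeq promoter windows of 8 genes, with the distance from the annotated start in bases on the horizontal axis. Squares are matches to the kB consensus, upright bars the shorter kB pattern and the circle the interferon pattern in ICAM1, and the kB matches lie between 21 and 242 bases before a start.

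UBD was far lower on the CDR1AS array, NFKBIA was lower by about the 2-fold mark, NFKBIE, TNFAIP3 and ICAM1 were lower by less or were close to background, and the subunit genes NFKB1, NFKB2 and RELB were nearly equal. All 10 probes were above background on both arrays, where background is the mean of 384 blank spots plus 2 SD (69.1 in control cells and 72.1 in CDR1AS cells, in intensity units). After background correction and quantile normalization, 1 of the 9 genes (UBD) was at least 2-fold lower and 0 were at least 2-fold higher, against 0.575% and 0.755% of all genes measured. The log2 ratios of the CDR1AS array over the control array were below 0 in 9 of 9 genes, as they were in 51% of all genes, with a median of -0.24 and a range from -3.86 to -0.02. The median over all genes was -0.0035 with quartiles of -0.10 and 0.09, and 7 of the 9 genes were below the lower quartile. These ratios belong to the readout by which the genes were chosen, so the counts describe the choice and support nothing further. On the scale of the authors' deposited value table, where RELB and NFKB2 were marginally higher, 7 of the 9 genes were lower and 2 (UBD and ICAM1) at least 2-fold lower, against 2.24% of 16305 genes, while 3.31% of these genes and 0 of the set were at least 2-fold higher.

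**Figure D2:**
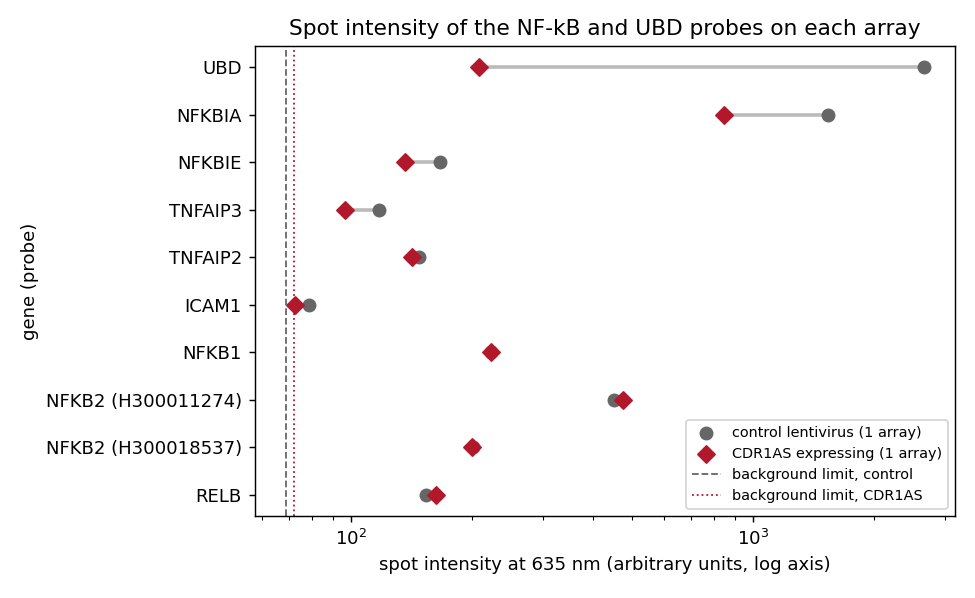
Deposited spot intensity in the Cy5 channel (log axis, arbitrary units) of the 10 probes on the control array (grey circles) and the CDR1AS array (red diamonds), 1 array each, with the background limits as vertical lines. UBD drops from 2657 to 208, NFKBIA from 1533 to 846, and ICAM1 sits next to the limits on both arrays.

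UBD, the modifier gene, had a spot intensity of 2657 in control cells and 208 in CDR1AS cells. These are 38.4 and 2.89 times the background limits of the arrays. In the authors' deposited table, whose values are intensities above the blank spots scaled to a common median of 25, UBD had 1234.3 and 63.4, so 5.14% of the control value remained. The normalized log2 levels were 11.41 and 7.55, a difference of -3.86 or 14.5-fold, which placed UBD at rank 1 from the lowest among 16685 genes. Among the 1203 genes within 0.5 log2 units of its mean level, the quartiles of the ratio were -0.22 and 0.18. Both spots of UBD were above the limit set by the blank spots. The local background column beside them read 2131 for the control spot and 109 for the CDR1AS spot, and with that column subtracted the log2 ratio was -2.40.

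NFKBIA encodes IkB-alpha, the inhibitor that is degraded and remade most rapidly. Its spot had an intensity of 1533 in control cells and 846 in CDR1AS cells, 22.2 and 11.7 times the limits. The normalized difference was -0.95 on the log2 scale, 1.93-fold lower, at rank 116 from the lowest. In the deposited table it had 699.0 and 355.5, which is 1.97-fold lower. It was thus just short of 2-fold on both scales, with both spots far above background.

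NFKBIE encodes IkB-epsilon, a slower inhibitor that binds RELA and REL dimers. Its probe gave an intensity of 167 in control cells and 136 in CDR1AS cells, or 2.42 and 1.89 times the limits. The normalized log2 ratio was -0.43, 1.35-fold lower, and the deposited values of 48.2 and 30.4 differed 1.59-fold. At that level the quartiles over 4051 genes were -0.13 and 0.11, so NFKBIE was lower than most genes of its brightness but within 2-fold.

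TNFAIP3 encodes A20, a ubiquitin-editing enzyme that ends signalling from the TNF receptor. It lay nearer to background, with an intensity of 118 in control cells and 96.7 in CDR1AS cells, at 1.70 and 1.34 times the limits. Its normalized log2 ratio was -0.43, 1.35-fold lower. The deposited values were 24.7 and 12.5, which is 1.98-fold lower. The normalized fold of such a dim gene is compressed because 50 intensity units were added to each spot after background correction, and an addition of 16 gave -0.68.

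ICAM1 encodes the adhesion molecule that binds leukocyte integrins, and its spots were the closest of the set to background. Its control spot read 78.5, where the limit was 69.1, and its CDR1AS spot read 72.8, where the limit was 72.1. The normalized log2 ratio was -0.24, while the deposited values of 6.1 and 1.5 differed 4.07-fold. With a CDR1AS spot at 1.01 times the limit the fold is poorly determined, and both spots were only just above background. TNFAIP2, an endothelial and myeloid gene also called M-Sec that promotes membrane nanotubes, gave 148 in control cells and 142 in CDR1AS cells. Its normalized log2 ratio was -0.18 and its deposited values were 39.2 and 33.2, 1.18-fold lower.

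The subunit genes differed little. NFKB1, which encodes the p105 precursor of p50, had an intensity of 223.2 on both arrays, a normalized log2 ratio of -0.11 and deposited values of 75 and 70.3. NFKB2, which encodes the p100 precursor of p52, had 2 probes. The brighter probe (H300011274) gave 449.9 in control cells and 475.1 in CDR1AS cells, with a normalized log2 ratio of -0.04 and deposited values of 183.0 and 185.6. The dimmer probe (H300018537), at 2.91 and 2.77 times the limits, had deposited values of 64.4 and 59.7 and a ratio of -0.11. The probes of NFKB2 were thus both close to equality. RELB, the partner of p52, gave 154 in control cells and 162 in CDR1AS cells, with a normalized log2 ratio of -0.02 and deposited values of 41.9 and 42.5. The ratios of RELB and of the brighter NFKB2 probe were just above 0 in the deposited table and when the arrays were scaled to 1 median, so no direction is given for either.

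**Figure D3:**
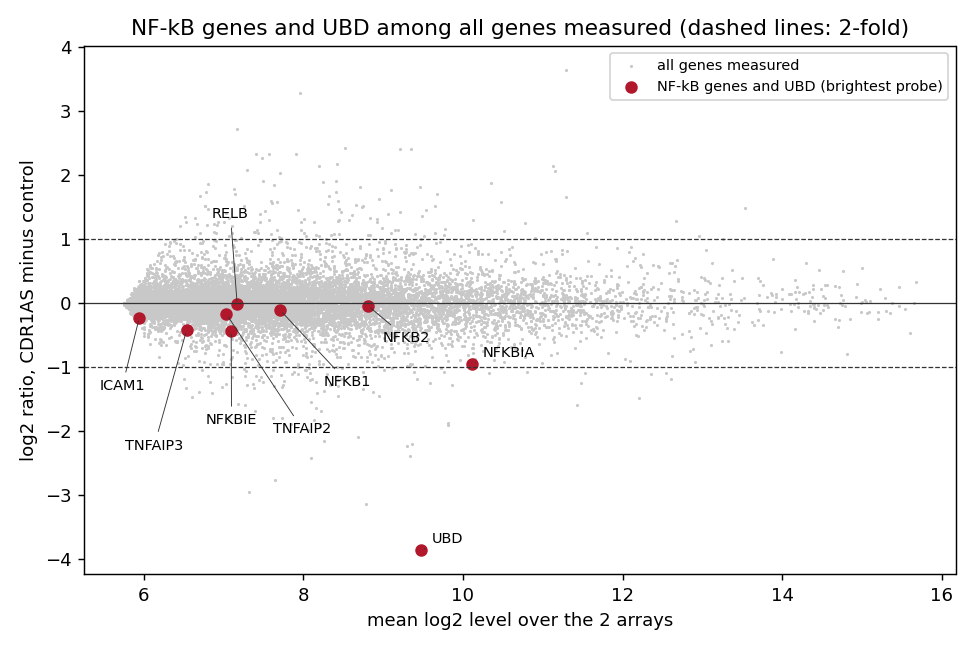
Log2 ratio (CDR1AS minus control) against mean log2 level for 16685 genes (grey) and the 9 genes of the set (red, brightest probe of each), 1 array per group, with dashed lines at 2-fold. UBD at -3.86 is the lowest of all genes, NFKBIA at -0.95 lies just inside the dashed line, and the subunit genes lie near 0.

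In the main setting the order of the ratios was UBD, NFKBIA, NFKBIE, TNFAIP3, ICAM1, TNFAIP2, NFKB1, NFKB2 and RELB from the lowest upward. NFKBIE and TNFAIP3 (-0.43 each) cannot be placed in order, nor can the last 3. The order after UBD moved with the processing. In the deposited table ICAM1 (-2.02) came next, then TNFAIP3 (-0.983) and NFKBIA (-0.975). With the local background subtracted the brighter NFKB2 probe (-1.75) lay below NFKBIA (-1.30). The 24 copies of each positive-control spot on 1 array had SDs between 0.10 and 0.24 (log2), which is a spread between spots and not between samples. The log2 ratios of UBD, NFKBIA, NFKBIE and TNFAIP3 were larger in size than the widest of these SDs, and those of ICAM1, TNFAIP2 and the subunit genes were not. The control spots were far brighter than those of NFKBIE and TNFAIP3, so their SDs do not give the spread of such dim spots. Before normalization, Positive Control 2 had a geometric mean of 7421 in control cells and 10870.5 in CDR1AS cells, a difference between arrays that the SDs leave out.

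Spots next to those of UBD and NFKBIA on the array, and genes next to them on the chromosome, had higher ratios than UBD and NFKBIA themselves. With UBD at rank 1 and NFKBIA at rank 116 from the lowest of 16685 genes, almost any neighbours would, and a local cause was not tested. The 24 blocks of the array had median ratios between -0.02 and 0.01. The 8 spots next to that of UBD had a median of -0.04 and a lowest value of -0.56, and the 5 next to NFKBIA had a median of -0.11. UBD lies on chromosome 6 among genes of the extended MHC region. Of the 5 measured genes on either side of it, 0 were past 2-fold, their ratios ran from -0.22 (HLA-F) to 0.08 (OR12D2), and their median was -0.02. Around NFKBIA on chromosome 14 the 10 neighbours had a median of 0.07, and around each of the other 7 genes 0 of 10 neighbours were past 2-fold either. Those 7 genes were themselves within 2-fold in the main setting, so that count does not show whether neighbours share their values. Of all genes only 0.575% were at least 2-fold lower and 0.755% higher, so a count of 0 in 10 says little around UBD either. Around TNFAIP3 and NFKBIE, 6 of 10 neighbours each were below 0, with HEBP2 (-0.54) and AARS2 (-0.48) the lowest. Spots next to TNFAIP3 ran from -0.84 to 0.19, and those next to ICAM1 from -0.39 to 0.24.

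The processing moved the sizes but seldom the direction. UBD was at least 2-fold lower in 9 of 9 alternatives that gave it a value, between -4.28 in the deposited table and -2.40 after subtraction of the local background. NFKBIA ran from -1.30 after that subtraction to -0.92 with scaling to a common median. That subtraction also took the brighter NFKB2 probe to -1.75, since its local background column read 220 in control cells and 431 in CDR1AS cells while the spot was almost the same. The dimmer NFKB2 probe then gave -0.38. ICAM1 ran from -2.02 in the deposited table to -0.08 after the subtraction.

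**Figure D4:**
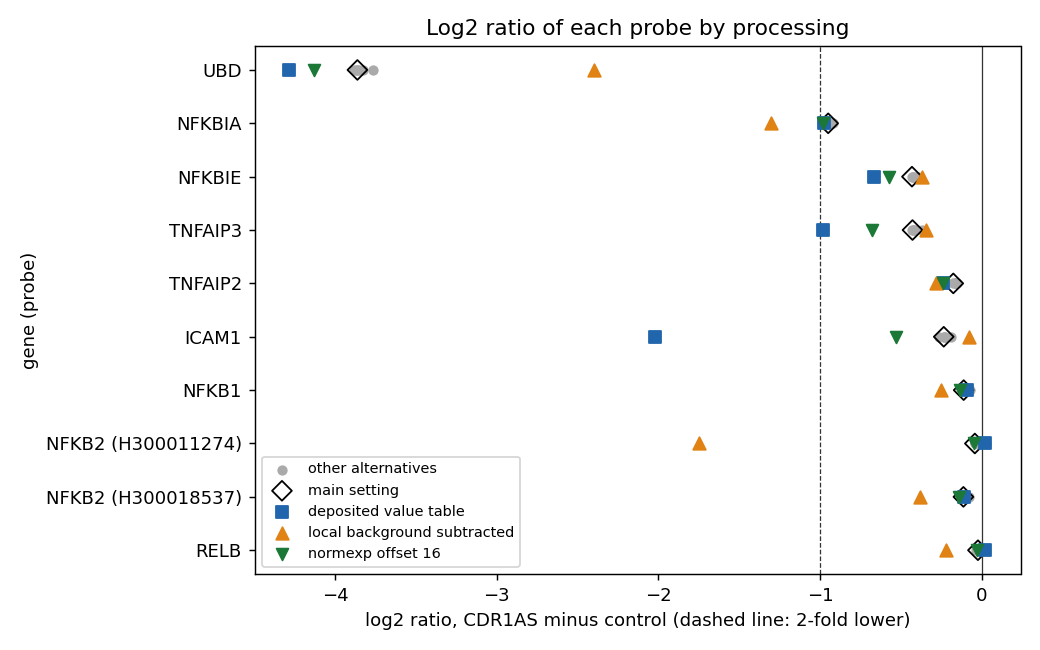
Log2 ratio (CDR1AS minus control, horizontal axis) of each of the 10 probes under the main setting (open diamonds) and the alternatives (other symbols), with a dashed line at 2-fold lower. UBD stays left of the dashed line throughout, ICAM1 and TNFAIP3 spread between the deposited table and the other settings, and the brighter NFKB2 probe moves to -1.75 only after subtraction of the local background.

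Other genes of the pathway were read from lists drawn up by role, each gene by its brightest probe. Of 20 measured receptor and adaptor genes, 13 were below 0 and 7 above, with a median of -0.04 and 0 past 2-fold on the normalized scale. Of all genes 0.575% were at least 2-fold lower and 0.755% higher, so counts of 0 in this list and the next are near those shares. TNFRSF12A, the receptor for TWEAK, was the highest at 0.82 (other probe 0.60), and the adaptor gene TRAF5 the lowest at -0.61. TRAF1, at 0.37, was 2.13-fold higher in the deposited table (9.2 in control cells and 19.6 in CDR1AS cells), from dim spots at 1.23 and 1.56 times the limits. Of 23 kinase and ubiquitin ligase genes, 17 were below 0 and 6 above, with a median of -0.03 and 0 past 2-fold. With the local background subtracted their median was 0.04, and in the deposited table it was 0. Among them the catalytic IkB kinase genes CHUK (-0.14) and IKBKB (-0.11), the NF-kB-inducing kinase gene MAP3K14 (-0.01), the ubiquitin ligase gene BIRC2 (-0.01) and the deubiquitinase gene CYLD (-0.15) were close to 0. IKBKG, which encodes the regulatory subunit NEMO, was at 0.46, with an intensity of 149 in control cells and 214 in CDR1AS cells.

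Of 13 other subunit and inhibitor genes, 9 were below 0 and 4 above, with a median of -0.05. Past 2-fold were 0 of them, near the 0.575% lower and 0.755% higher among all genes. RELA, the subunit that pairs with p50 in the classical dimer, was at 0.05 with an intensity of 101 in control cells and 110 in CDR1AS cells. REL was at -0.43 (other probe -0.20), with 152 and 124. NFKBIB, which encodes IkB-beta, was at -0.23, and TNIP1, a partner of A20, at -0.05. The subunit genes outside the set therefore lay within 2-fold, and REL had the lowest ratio of the 5 subunit genes in the main setting.

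Of 30 other genes reported as NF-kB targets, 19 were below 0 and 11 above, 7 were at least 2-fold lower and 2 at least 2-fold higher, against 0.575% and 0.755% of all genes. Their median was -0.12, and it was 0.05 when only genes at 2 times the background limit on both arrays were kept. That filter leaves out genes for being dim on the CDR1AS array, among them CCL2, CCL20, CXCL2, CXCL3 and C3. It also leaves out PLAU for its dim control spot. The medians thus cover different genes, and the move follows in part from the filter itself. Earlier results of these arrays had already shown several of these chemokine genes to be low, so their count is no independent evidence. The 7 were the chemokine genes CCL2 (-2.96), CCL20 (-2.76), CXCL8 (-2.39), CXCL3 (-1.80) and CXCL2 (-1.32), the lymphotoxin gene LTB (-1.90) and the complement gene C3 (-1.39). The CDR1AS spots of CCL2 and CXCL2 were at 1.02 and 1.03 times the limit, so the size of their folds is poorly determined. Their control spots were at 6.35 and 2.24 times the limit, while that of ICAM1 was at 1.14 times. In the deposited table CCL2 had 177.9 and 1.7, CXCL2 42.4 and 2.3, and CCL20 213.8 and 11, control value first, which are larger folds than on the normalized scale. C3 had 3 probes, and the other pair gave -1.18 and -0.61, with deposited values of its brightest probe of 51.9 in control cells and 4.8 in CDR1AS cells.

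The targets did not all lie on the low side. PLAU, which encodes urokinase, was 4.10-fold higher (2.04), with an intensity of 114 in control cells and 456 in CDR1AS cells, and its other probe gave 0.996. Its deposited values of 22.9 and 177.1 differed 7.73-fold. GADD45B, a stress-induced gene, was 2.21-fold higher (1.15), with 382 in control cells and 897 in CDR1AS cells. The targets SOD2 (-0.21), IER3 (0.38), IL1A (0.05), CFLAR (-0.22) and the chemokine gene CXCL5 (-0.03), named after their values were seen, were within 2-fold. CXCL5 was at 1.18 times the limit on both arrays, so its ratio is poorly determined. Named in the same way, CD83 (-0.70) and KLF6 (0.72) were further from 0, and CD83 was 2.83-fold lower in the deposited table.

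**Figure D5:**
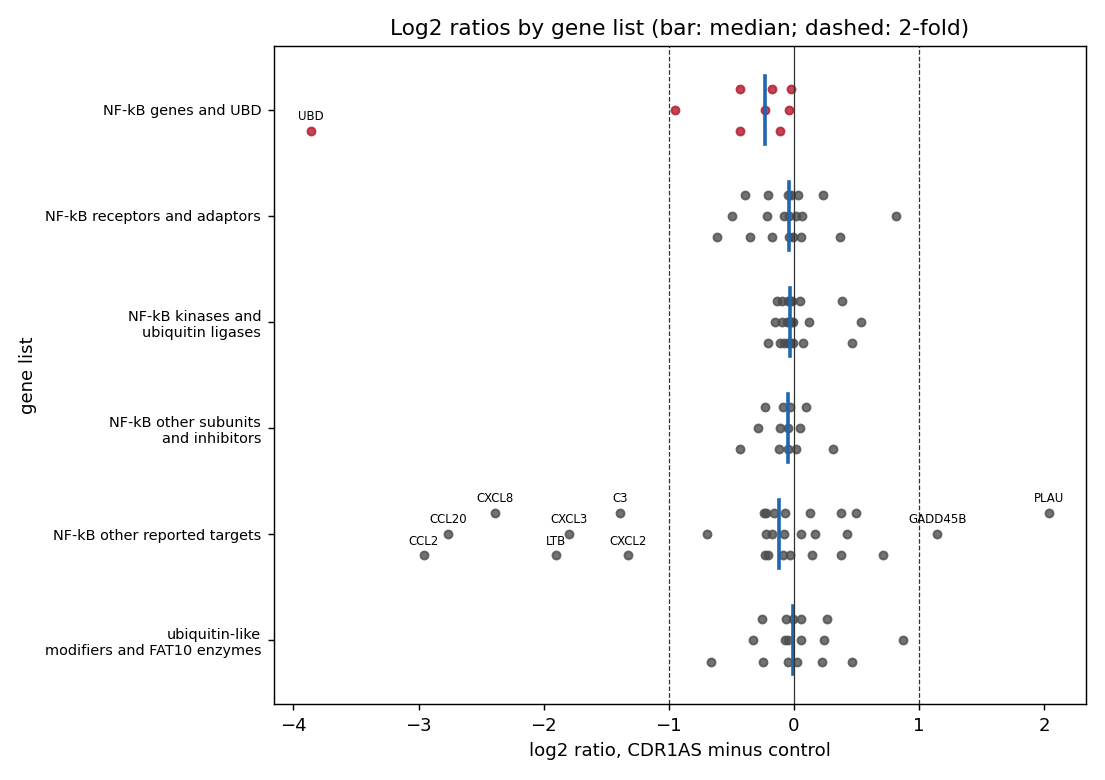
Log2 ratio (CDR1AS minus control) of each measured gene in the set (red) and in 5 lists of related genes (grey), with the median of each as a blue bar and dashed lines at 2-fold. Only UBD of the set and 9 of the 30 other reported targets lie past 2-fold.

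The labelled cell type was checked against its markers. Of 11 colon epithelial markers with a probe, 10 exceeded the limit in control cells and 11 in CDR1AS cells. Their summed intensity above the blanks was 71715 in the former and 67237 in the latter, and their log2 ratios ran from -0.82 (CDX2) to 0.83 (KRT19). Most of that sum was KRT18, with an intensity of 56040 in control cells and 47565 in CDR1AS cells. CDH17, KRT20, CDX1 and LGALS4 were dim, below 2 times the limit on both arrays. Of 11 leukocyte markers 7 were above background on each array, most of them dimly, and PTPRC, which encodes the pan-leukocyte marker CD45, was below the limit on both. The summed intensity of the leukocyte markers above the blanks was 326 in control cells and 340 in CDR1AS cells, and that of the endothelial markers, of which 3 and 5 of 7 were above background, was 150 and 179. That of the 8 fibroblast markers, 4 and 5 of them above background, was 387 and 376. Fewer cells expressing a gene and less RNA per cell cannot be told apart in bulk RNA. No probe carried the symbol CDR1AS or CDR1, so the labels of the arrays were not checked on the transcript that was expressed.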

How the data were processed

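Total RNA of SW620 cells was measured on 2 one-colour arrays, 1 per group. Per the labels' protocols, Trizol-extracted RNA was made into amino allyl aRNA and labelled with Cy5. Per the file headers, the deposited intensity is a spot median from 3 scanner gains, with the background median in a column of its own. How the gains were combined is not stated in any header or label. The series' deposited value table was a straight line of each array's intensity (largest residual 0.0510 and 0.0559 units), 0 near the blank spots, with medians of 25 and 25, on a linear scale.

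Spots were corrected by normexp (limma 3.58.1, R 4.3.3; offset 50, no local background), quantile normalized over 24459 gene probes (1 left out for a quality flag) and put on the log2 scale. A gene was read from its brightest probe and kept where above background on at least 1 array, and a side below background was held at the floor. The steps were also run on simulated data, and the outcome is not reported here. Of 10 other settings, 1, the subtraction of block medians, was added after the data were seen.

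The genes and lists were chosen with earlier results of these data known. Named were all genes of the set with every probe, list genes at or past 2-fold and a few fixed by role. The extremes TNFRSF12A and TRAF5, and TRAF1, SQSTM1, UBE2L6 and ISG15, were named after their values were seen. NFKBIE and RELB were not among the promoter windows used here.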

Additional observations from a re-analysis of the deposited data

How the results depend on the processing

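UBD and NFKBIA were below 0 in 9 of 9 alternatives each, NFKB1 and the dimmer NFKB2 probe in 9 of 9, and NFKBIE, TNFAIP3, TNFAIP2 and ICAM1 in 8 of 8 each. RELB and the brighter NFKB2 probe were below 0 in 7 and above 0 in 2. The number of the 9 genes at least 2-fold lower was 1 in the main setting, 3 with the local background subtracted and 2 in the deposited value table, and 0 were at least 2-fold higher in any. The median of the set moved from -0.24 to -0.53 with an offset of 16 and to -0.67 in the deposited table. The smaller offset compresses dim genes less, while the deposited table differs in several steps at once, and the cause of its move was not tested. The stricter filter, with both spots at 2 times the limit or more, kept 5 of the 9 genes. The median of the ubiquitin-like modifier list was -0.0066 in the main setting and 0.63 with that subtraction, and the cause was not tested. Over all genes, 96 were at least 2-fold lower and 126 higher. These counts were 172 and 229 with an offset of 16, 574 and 732 with the local background subtracted, and 365 and 539 in the deposited table. The stricter filter kept 7396 of 16685 genes, of which 65 (0.879%) were lower and 75 (1.01%) higher. No paired analysis was possible because each group held 1 array. Leaving out a replicate was not possible for the same reason.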

Other observations

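The genes that act around FAT10, and other ubiquitin-like modifiers, were also read. UBD had the lowest ratio of all genes measured, so the ratios of these genes were bound to be higher. Of 17 measured genes, 9 were below 0 and 8 above, with a median of -0.0066. On the normalized scale 0 were past 2-fold, near the 0.575% lower and 0.755% higher among all genes. The median was above 0 with scaling to a common median (0.06), with loess (0.02), in the deposited table (0.09) and after subtraction of the local background. UBA6, the enzyme that activates FAT10, was at -0.05, UBE2Z, its conjugating enzyme, at -0.26, and NUB1, which speeds the degradation of FAT10 conjugates, at -0.07. MAD2L1, a spindle checkpoint gene whose protein binds FAT10, was at 0.46, with its other probe at 0.13. SQSTM1, which encodes the autophagy receptor p62, had an intensity of 501 in control cells and 993 in CDR1AS cells, with a log2 ratio of 0.87 and deposited values of 207.3 and 422.8, 2.04-fold higher. The interferon-induced modifier gene ISG15 was at -0.33, and its conjugating enzyme gene UBE2L6 was the lowest of the list at -0.67, with an intensity of 1256 in control cells and 857 in CDR1AS cells.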
